A study of Arabidopsis thaliana with 15 samples.

Results

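The expression of SPCH (AT5G53210, probe set 248247_at), MUTE (AT3G06120, probe set 256395_at) and FAMA (AT3G24140, listed under the symbol FMA, probe set 257247_at) was followed array by array through the stomatal lineage of Arabidopsis thaliana. The 3 genes were chosen by name as the basic helix-loop-helix (bHLH) regulators of the lineage, and they are 3 of 12669 genes named on the arrays, each with 1 probe set among 20956. Expression was measured on ATH1 arrays in protoplasts that were sorted by fluorescence from aerial tissue of 14-day-old Col seedlings, with 3 arrays in each of 5 populations. All seedlings grew with 16 h light and 8 h dark at 25 °C on 1% sucrose, and all protoplasts came from a 2 h digestion. Early precursors, which span meristemoid mother cells and meristemoids still young, came from the SPCHp::SPCH-YFP line, and middle precursors (late meristemoids and young guard mother cells) from MUTEp::nucGFP. Late precursors (guard mother cells at maturity and guard cells just formed) came from FAMAp::GFP-FAMA, mature guard cells from the enhancer trap E1728::GFP, and the epidermis as a whole from ML1p::YFP-RCI2A. Each population is a different marker line, so the effect of a line and that of its stage cannot be told apart, and a lower value in sorted bulk RNA cannot separate fewer expressing cells from less RNA per cell.

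SPCH, MUTE and FAMA are related transcription factors that act one after another, each paired with the broadly expressed bHLH proteins ICE1/SCRM and SCRM2. SPCH starts the asymmetric divisions that open the lineage, MUTE ends them and commits the meristemoid to become a guard mother cell, and FAMA limits the guard mother cell to a single symmetric division and gives guard cells their identity. The SPCH-YFP and GFP-FAMA constructs hold the coding sequence of SPCH or FAMA, and transcripts of the transgene can add to the SPCH signal of early precursors and the FAMA signal of late precursors. Those cells were also sorted on the fusion proteins themselves. The MUTE construct drives a nuclear GFP without MUTE coding sequence. SPCH outside early precursors, FAMA outside late precursors and MUTE in every population are therefore the values that the transgenes' coding sequence does not enter.

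Values are log2 expression from RMA. The medians of the 15 arrays lay between 2.52 and 2.68, and a group mean at or below 2.68 is treated as near the background. Where 1 of the compared means is that low, the fold is given as at least the brighter mean over the dim arrays, each raised to 2.68 where it lay below. The arrays of early precursors differed most among themselves, with a residual SD of 0.658 over all probe sets, against 0.282 to 0.383 in the other populations. In the SPCH-YFP line this did not extend to SPCH, whose SD over the same 3 arrays was 0.10.

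SPCH was high at the start of the lineage, lower but still above the background in the middle, and near the background from late precursors on. It measured 9.19, 9.15 and 8.998 on the 3 early precursor arrays. On the middle precursor arrays it measured 3.52, 4.004 and 4.77. Every early array lay above every middle array, with a gap of 4.23, and replicate 3 was the highest of the middle precursors. SPCH measured 2.41, 2.30 and 2.24 in late precursors. It measured 2.25, 2.44 and 2.86 in mature guard cells. In the epidermis it measured 2.38, 2.04 and 2.38. The last 3 populations overlapped, and of their 9 arrays only mature guard cell replicate 3 lay above 2.68.

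**Figure D1:**
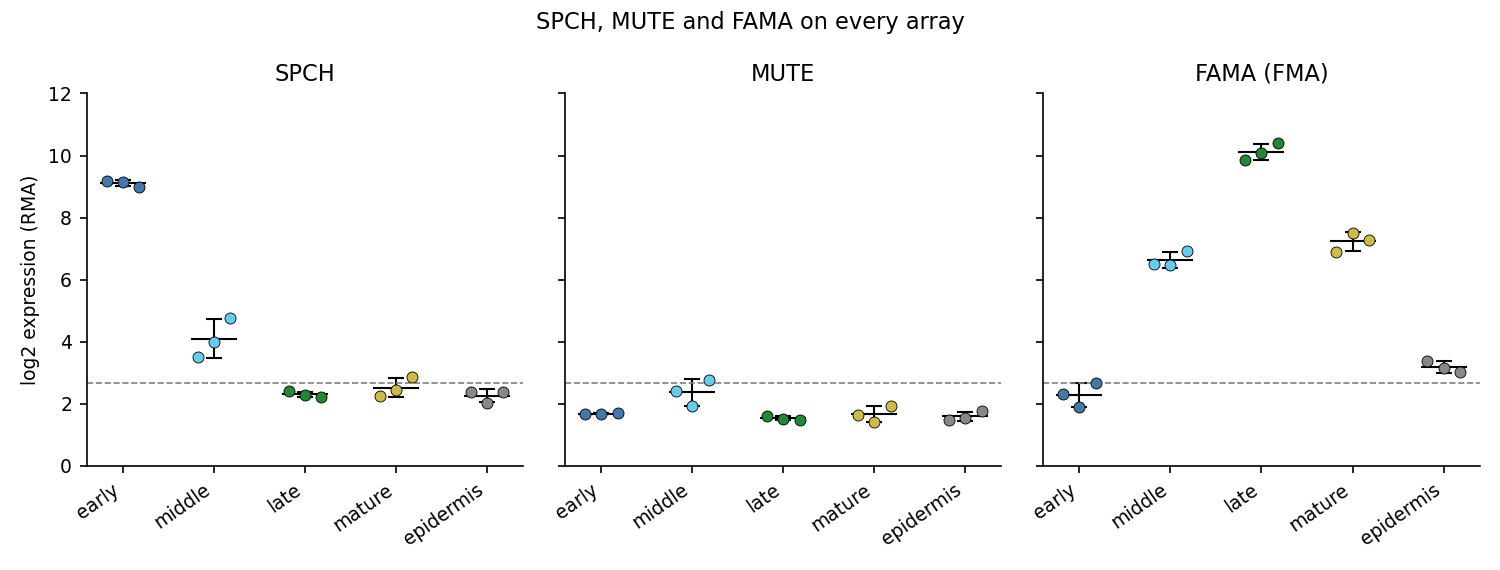
Log2 expression (RMA) of SPCH, MUTE and FAMA on each of 15 arrays: points are arrays, horizontal bars are group means, error bars are SD (n = 3), and the dashed line is the highest array median, 2.68. SPCH is highest in early precursors (8.998 to 9.19), FAMA in late precursors (9.87 to 10.39), and MUTE passes the dashed line on 1 middle precursor array (2.78).

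The question for SPCH in middle precursors was whether its RNA is still present once the MUTE promoter is active, in a line with no SPCH transgene. SPCH averaged 4.10 ± 0.63 in middle precursors and 2.27 ± 0.20 in the epidermis (SD, n = 3 each), a log2 difference of 1.83 (SE 0.26, limma adjusted p = 0.00166) or at least 2.68-fold, in a comparison where 5.52% of all probe sets passed an adjusted p of 0.05. Against middle precursors, SPCH was at least 2.68-fold lower in late precursors (adjusted p = 0.00234, 3.81% of all probe sets called) and at least 2.57-fold lower in mature guard cells (adjusted p = 0.00992, 1.36% called). The groups did not overlap in any of these comparisons, the narrowest gap being 0.67 between middle precursors and mature guard cells. The last call missed the threshold when only these groups were fitted (adjusted p = 0.0703). Its SD in middle precursors was above the residual SD of 0.282 of that population.

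Among late precursors, mature guard cells and the epidermis no SPCH difference passed the test. The log2 difference was 0.05 for late precursors over the epidermis (95% interval -0.51 to 0.61, adjusted p = 0.936) and 0.25 for mature guard cells over the epidermis (-0.31 to 0.81, adjusted p = 0.610). For mature guard cells over late precursors it was 0.20, with an interval of -0.36 to 0.76. With cyclic loess the differences over the epidermis turned to -0.19 for late precursors and -0.0058 for mature guard cells, and without epidermis replicate 2 the first of them to -0.067. All means in these comparisons were near the background, where a difference in RNA can go unseen.

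The comparisons with early precursors include the SPCH transgene. Whether the SPCH and FAMA probes lie in the coding sequence that the constructs carry is not given in the sources used here, so how much of these folds comes from the transgene is not known. SPCH was 32.3-fold lower in middle precursors than in early precursors (adjusted p = 7.77e-07, 9.5% of all probe sets called). It was at least 86.5-fold lower in late precursors (adjusted p = 2.21e-08, 20.2% called) and at least 83.0-fold lower in mature guard cells (adjusted p = 6.45e-08, 20.1% called). Over the epidermis, SPCH in early precursors was at least 86.5-fold higher (adjusted p = 4.05e-08, 8.91% called). TRY, a MYB repressor of trichome fate and the annotated gene before SPCH on the chromosome, measured 2.57, 6.61 and 2.32 in the SPCH-YFP line. It was high on a single array, while SPCH was even across all 3. What lies behind the TRY value was not tested.

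MUTE was low everywhere, and its mean was highest in the population sorted with its own promoter. It measured 2.41, 1.92 and 2.78 on the middle precursor arrays. In early precursors it lay between 1.68 and 1.70, and in late precursors between 1.496 and 1.62. Mature guard cells had 1.41 to 1.92 and the epidermis 1.49 to 1.76. All 5 group means were at or below 2.68, so no fold is given. The middle precursor arrays lay above all arrays of each other population, by 0.16 over the epidermis and by only 0.0042 over mature guard cells.

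MUTE passed the test in 3 comparisons, each between middle precursors and another population. The log2 difference of middle precursors was 0.77 over the epidermis (SE 0.20, adjusted p = 0.0386) and 0.68 over early precursors (SE 0.20, adjusted p = 0.0461). Late precursors stood 0.83 below middle precursors on the log2 scale (-0.83, SE 0.20, adjusted p = 0.0336). Mature guard cells, with a difference of -0.71, did not pass (adjusted p = 0.120). The other 6 comparisons of MUTE, all among populations other than middle precursors, had log2 differences from -0.15 to 0.12 and none passed. In the moderated F test over the 5 populations MUTE had an adjusted p of 0.0361, beside 6.33e-08 for SPCH and 9.14e-09 for FAMA, and 19.8% of all probe sets passed it.

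The MUTE calls changed when single arrays were left out. The difference over the epidermis missed the threshold with epidermis replicate 1 (adjusted p = 0.110), 2 (0.0865) or 3 (0.0654) left out, and equally with middle precursor replicate 1 (0.118) or 3 (0.153), late precursor replicate 2 (0.0605) or 3 (0.0574), or mature guard cell replicate 1 (0.0527). The difference over early precursors was lost without any 1 array other than middle precursor replicate 2 and mature guard cell replicate 3, with adjusted p from 0.0504 to 0.172 in those fits. The difference between late and middle precursors was lost without middle precursor replicate 1 (0.115) or 3 (0.142), or late precursor replicate 1 (0.0588), 2 (0.125) or 3 (0.122). Without middle precursor replicate 2, the array with the lowest MUTE value of that population, the mature guard cell difference passed (-0.93, adjusted p = 0.0285).

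FAMA was near the background in early precursors, high in middle precursors, highest in late precursors and high in mature guard cells. It measured 2.32, 1.90 and 2.66 in early precursors. In middle precursors it measured 6.50, 6.47 and 6.93. Every middle array exceeded every early array, by at least 3.82. FAMA measured 9.87, 10.08 and 10.39 in late precursors. It measured 6.91, 7.51 and 7.29 in mature guard cells. In the epidermis, which contains stomata, it measured 3.38, 3.15 and 3.02, above 2.68 on all 3 arrays. Middle precursors and mature guard cells overlapped in FAMA, while late precursors lay above both without overlap.

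The question for FAMA in middle precursors was whether its RNA is already present in a population taken with the MUTE promoter. In this line, which holds no FAMA transgene, FAMA averaged 6.64 ± 0.25 in middle precursors and 2.29 ± 0.38 in early precursors (SD, n = 3 each). The log2 difference was 4.34 (SE 0.23, adjusted p = 7.77e-07), or at least 15.6-fold. Over the epidermis, FAMA was 10.9-fold higher in middle precursors (adjusted p = 9.19e-06). Guard cell markers moved with FAMA in part. CHX20, a cation exchanger of guard cells, averaged 7.11 ± 0.89 in middle precursors and 5.38 ± 0.94 in early precursors, and was 3.33-fold higher (adjusted p = 0.0307). It averaged 6.54 ± 0.14 in the epidermis, from which middle precursors did not differ past the threshold (adjusted p = 0.50). GC1, a gene expressed strongly in guard cells, averaged 4.77 ± 1.17 in middle precursors, 3.999 ± 2.60 in early precursors and 5.78 ± 0.46 in the epidermis. Middle precursors did not pass for GC1 against either population (adjusted p = 0.630 and 0.624). The part of these markers in the FAMA difference was not tested.

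In mature guard cells, sorted with a line that likewise holds no FAMA transgene, FAMA RNA was still at 7.23 ± 0.30 (SD, n = 3). This was 16.6-fold above the epidermis (adjusted p = 5.49e-06, 3.91% of all probe sets called), the second highest log2 difference of that comparison, and at least 23.6-fold above early precursors (adjusted p = 2.39e-07). Mature guard cells and middle precursors differed by 0.60 on the log2 scale, 1.51-fold, with a 95% interval of 0.11 to 1.09 for this gene alone and an adjusted p of 0.320. This interval lies above 0, and the adjusted p over all probe sets did not pass.

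The comparisons with late precursors include the FAMA transgene, with the same limit as for SPCH. FAMA in late precursors was 11.1-fold above middle precursors (adjusted p = 1.72e-05), 122-fold above the epidermis (adjusted p = 7.27e-09, 8.01% of all probe sets called) and at least 173-fold above early precursors (adjusted p = 1.60e-09). In mature guard cells it fell by 2.88 on the log2 scale relative to late precursors, or 7.36-fold (SE 0.23, adjusted p = 0.000283). That comparison had few calls of any kind, with 0.138% of probe sets past the threshold. FAMA had the second lowest log2 difference among all probe sets. With only these groups in the fit, the call was lost (adjusted p = 0.0691). In that limma fit 0 probe sets passed after adjustment, and 2202 had an unadjusted p under 0.05. The summed linear signal of the 3 measured guard cell markers of 11 listed (CHX20, GC1 and BLUS1) was 1248 to 1363 in mature guard cells and 1170 to 1967 in late precursors. These ranges overlapped. BLUS1 was near the background, with means of 2.63 for late precursors and 2.41 for mature guard cells, so CHX20 and GC1 make up most of each sum. The part of these markers in the FAMA difference was not tested here either, and the late FAMA values include the transgene.

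FAMA was lower in early precursors than in the epidermis. The means were 2.29 ± 0.38 in early precursors and 3.19 ± 0.18 in the epidermis (SD, n = 3 each), with a log2 difference of -0.89 (SE 0.23, adjusted p = 0.0284) and a fold of at least 1.42. The groups did not overlap, with a gap of 0.37. This call missed the threshold when epidermis replicate 1 was left out (adjusted p = 0.0947), and likewise for epidermis replicate 2 (0.0737) and early precursor replicate 2 (0.0838), and in 4 of the other settings tried.

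**Figure D2:**
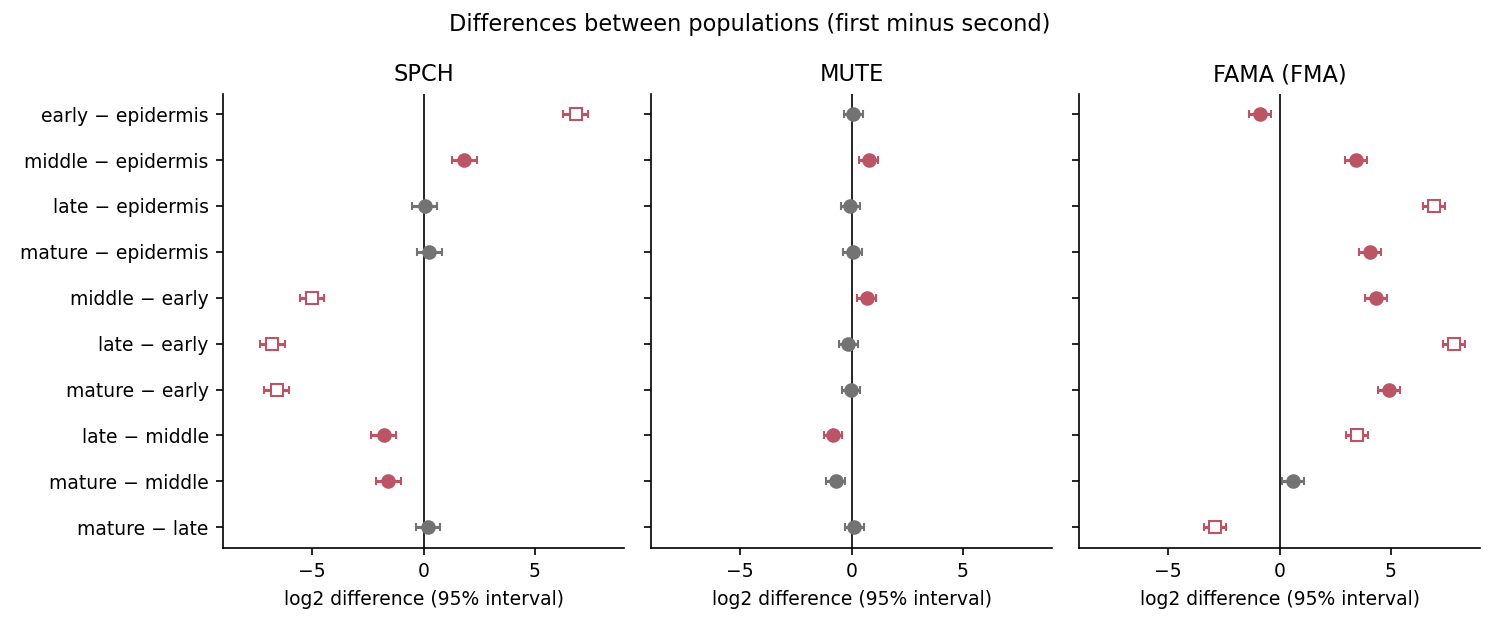
Log2 differences between populations (first minus second) for SPCH, MUTE and FAMA, with 95% intervals from the limma fit; red marks adjusted p below 0.05, grey the rest, and open squares mark comparisons in which a line carries coding sequence of the gene. FAMA differs by 4.34 between middle and early precursors and by 0.60 between mature guard cells and middle precursors, where the marker is grey.

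Read by population, the 3 regulators formed different combinations on single arrays. In early precursors SPCH lay above 2.68 on all 3 arrays, and MUTE and FAMA on 0 of 3. In middle precursors SPCH and FAMA lay above it together on all 3 arrays, and MUTE on 1 of 3. In late precursors FAMA alone lay above it, on 3 of 3. Mature guard cells had FAMA above it on 3 arrays and SPCH on 1. Middle precursors were thus the population in which SPCH and FAMA were both above the background on every array, in a line with no transgene of either. Since 2.68 is the highest array median, a large share of all probe sets lies above it on any array, and these counts are a description. In RNA of a sorted pool, 2 genes above the cutoff need not be expressed in the same cell.

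The middle precursor arrays also differed among themselves. Replicate 3 had the highest value of all 3 genes: 4.77 for SPCH, 2.78 for MUTE and 6.93 for FAMA. Replicate 2 had the highest guard cell markers, with CHX20 at 8.11 and GC1 at 6.12. Its summed signal of the guard cell list was 351, against 106 and 135 on the other middle precursor arrays. The same array had the lowest MUTE (1.92) and FAMA (6.47) of the group. In early precursors replicate 1 stood apart in GC1 (6.99 against 2.73 and 2.28) and CHX20 (6.46 against 4.88 and 4.79). It did not stand apart in BLUS1 (1.79 against 1.90 and 1.73). The SPCH (9.19) and FAMA (2.32) values of replicate 1 lay close to or between those of the other arrays. The part of the guard cell markers in the SPCH and MUTE differences was not tested either. The mesophyll genes measured, 3 of 9 listed (PSAE-1, SBPASE and RCA), summed to 206 to 1438 in early, 643 to 692 in middle and 488 to 686 in late precursors. They summed to 630 to 1033 in mature guard cells, against 2271 to 3732 in the epidermis. SWEET11, the 1 phloem gene of 4 listed with a probe set in the annotation used here, was at most 2.82 on any array. TRY, the 1 trichome gene of 5 listed with a probe set in that annotation, was at 6.61 on early precursor replicate 2. On the remaining arrays it was at most 2.67.

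The counts of called regulators can be read against all probe sets. Between early precursors and the epidermis 2 of 3 passed, SPCH higher and FAMA lower, where 8.91% of probe sets passed, 3.4% higher and 5.51% lower. Between middle precursors and the epidermis all 3 passed, each higher, where 3.24% were higher and 2.29% lower. FAMA alone passed, as higher, between late precursors and the epidermis, where 4.75% were higher and 3.26% lower. FAMA alone also passed between mature guard cells and the epidermis, where 2.29% were higher and 1.62% lower. These 4 comparisons share the epidermis arrays. SPCH in early precursors and FAMA in late precursors were measured in cells sorted on the fusion protein of that gene, with its transgene present. Middle precursors were sorted with the MUTE promoter, and MUTE was near the background there. Its call against the epidermis held in 7 of the 15 fits with 1 array left out.

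Along the lineage, all 3 genes passed between middle and early precursors, SPCH lower and MUTE and FAMA higher, where 5.47% of probe sets were higher and 4.03% lower. All 3 passed again between late and middle precursors, SPCH and MUTE lower and FAMA higher, where 2.23% were higher and 1.58% lower. SPCH passed as lower and FAMA as higher between late and early precursors, where 10.8% were higher and 9.42% lower. The same held between mature guard cells and early precursors, where 9.71% were higher and 10.4% lower. Of the 3, SPCH alone passed between mature guard cells and middle precursors, as lower, where 0.735% were higher and 0.63% lower. FAMA alone passed between mature guard cells and late precursors, also as lower, where 0.0668% were higher and 0.0716% lower. Differences of SPCH that involve early precursors, and of FAMA that involve late precursors, carry the limits of the transgenes and the sorting. With 1 array left out, the MUTE call held in 2 of 15 fits between middle and early precursors. Between late and middle precursors it held in 10 of 15.

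**Figure D3:**
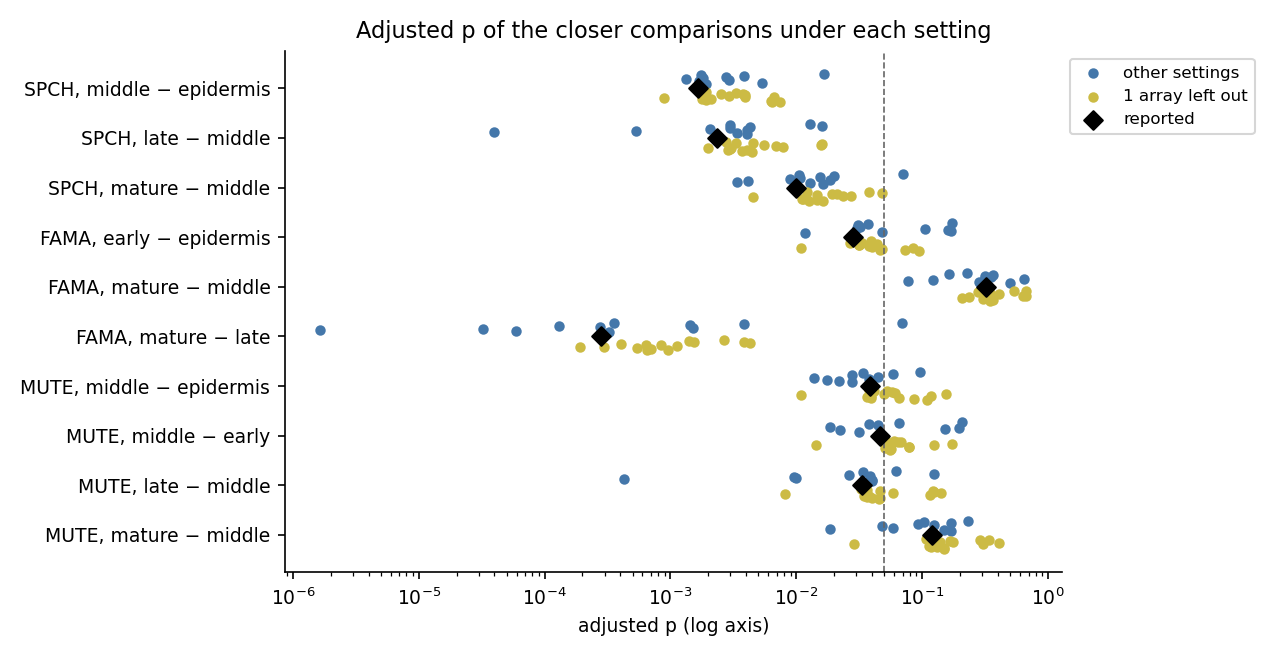
Adjusted p on a log axis for 10 comparisons of SPCH, FAMA and MUTE: diamonds are the reported values, blue points other processing settings, yellow points fits with 1 array left out, and the dashed line is 0.05. The SPCH difference between middle precursors and the epidermis stays between 0.000893 and 0.0165, and the points of each MUTE comparison lie on both sides of the line.

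Other genes of the stomatal pathway could be read only in part. Of 56 listed, 5 have a probe set in the annotation used here, which lists 8136 of 20956 to no gene. None of the listed bHLH partners, receptors or kinases has a probe set named there. The 5 are the signalling peptide STOMAGEN, the protease CRSP, the polarity gene BRXL2 (symbol ATBRXL2) and the transcription factors SOL1 and AGL16. In early precursors against the epidermis 2 rose and 1 fell, where 3.4% of all probe sets rose and 5.51% fell. In middle precursors against the epidermis 1 rose (3.24% of all probe sets). In late precursors 1 fell against the epidermis (3.26%), as did 1 in mature guard cells (1.62%). Against early precursors, 1 fell in middle precursors (4.03%), 2 in late precursors (9.42%) and 2 among mature guard cells (10.4%). Against middle precursors 1 fell in late precursors (1.58%) and 1 among mature guard cells (0.63%), and 0 passed in limma between mature guard cells and late precursors, where 0 of the 5 had an unadjusted p under 0.05 too. The median log2 difference of the 5 was -0.58 between late and middle precursors, against -0.012 over all probe sets. This was the lowest such median of the 10 comparisons. Between early precursors and the epidermis it was -0.027, against 0.067. A median of 5 is the value of 1 gene, here STOMAGEN in the first case and CRSP in the second. STOMAGEN averaged 1.55 in late and 2.13 in middle precursors, and CRSP 1.87 in early precursors and 1.90 in the epidermis, all near the background.

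SOL1, a CXC-domain transcription factor that acts in lineage cells, was raised in the populations where SPCH was above the background. It measured 4.03, 3.64 and 4.43 in early precursors. In middle precursors it measured 4.42, 3.62 and 4.10. These overlapped, and in the remaining populations no array exceeded 2.55. SOL1 was at least 2.56-fold above the epidermis in early precursors (adjusted p = 0.000840) and at least 2.60-fold in middle precursors (adjusted p = 0.00138). It was at least 2.60-fold lower in late precursors than in middle precursors (adjusted p = 0.000865). Between middle and early precursors SOL1 differed by 0.02 on the log2 scale (95% interval -0.49 to 0.53, limma adjusted p = 0.963). SPCH differed by -5.01 between the same populations, a comparison that includes the SPCH transgene and cells sorted on SPCH-YFP.

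BRXL2, a partner of the polarity protein BASL in asymmetric division, measured 3.74, 5.79 and 5.85 in early precursors. In middle precursors it measured 3.08, 3.30 and 3.54. Replicate 1 of the early precursors, the array with high GC1, was the lowest of its group. BRXL2 was at least 5.11-fold above the epidermis in early precursors (adjusted p = 0.00233), and 3.53-fold lower in middle than in early precursors (adjusted p = 0.0292). The second call was lost without early precursor replicate 2 (0.0749) or 3 (0.0534), or middle precursor replicate 1 (0.0990), 2 (0.0715) or 3 (0.0716). With only the groups compared in the limma fit, both BRXL2 calls were lost (adjusted p = 0.113 for the first and 0.182 for the second).

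STOMAGEN, a peptide made in the mesophyll that promotes stomatal development, averaged 2.69 ± 0.46 in the epidermis (SD, n = 3). On the epidermis arrays it measured 2.34, 3.21 and 2.53, and only replicate 2 lay above the highest array median. It lay between 1.40 and 2.18 on all 12 lineage arrays, so every lineage mean was near the background. STOMAGEN passed as lower in early precursors (adjusted p = 0.0110), late precursors (0.00362) and mature guard cells (0.0486). It did not pass in middle precursors, where it averaged 2.13. Values this close to the background limit what these calls can show. The call in early precursors was lost with 1 weight per group (0.0728), with array weights (0.0624) and with only these groups in the fit (0.192). The epidermis arrays also had the highest mesophyll marker sums given above, and the part of that in the STOMAGEN values was not tested. The call in mature guard cells was lost in 11 of the 15 fits with 1 array left out, at adjusted p from 0.0568 to 0.129. These were the fits without epidermis replicate 2 or 3, or without any 1 middle precursor, late precursor or mature guard cell array. CRSP, a protease that processes the peptide EPF2, lay between 1.53 and 2.07 on all arrays, and AGL16, a MADS-box gene of the lineage, between 2.04 and 3.63. Neither passed in any comparison.

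**Figure D4:**
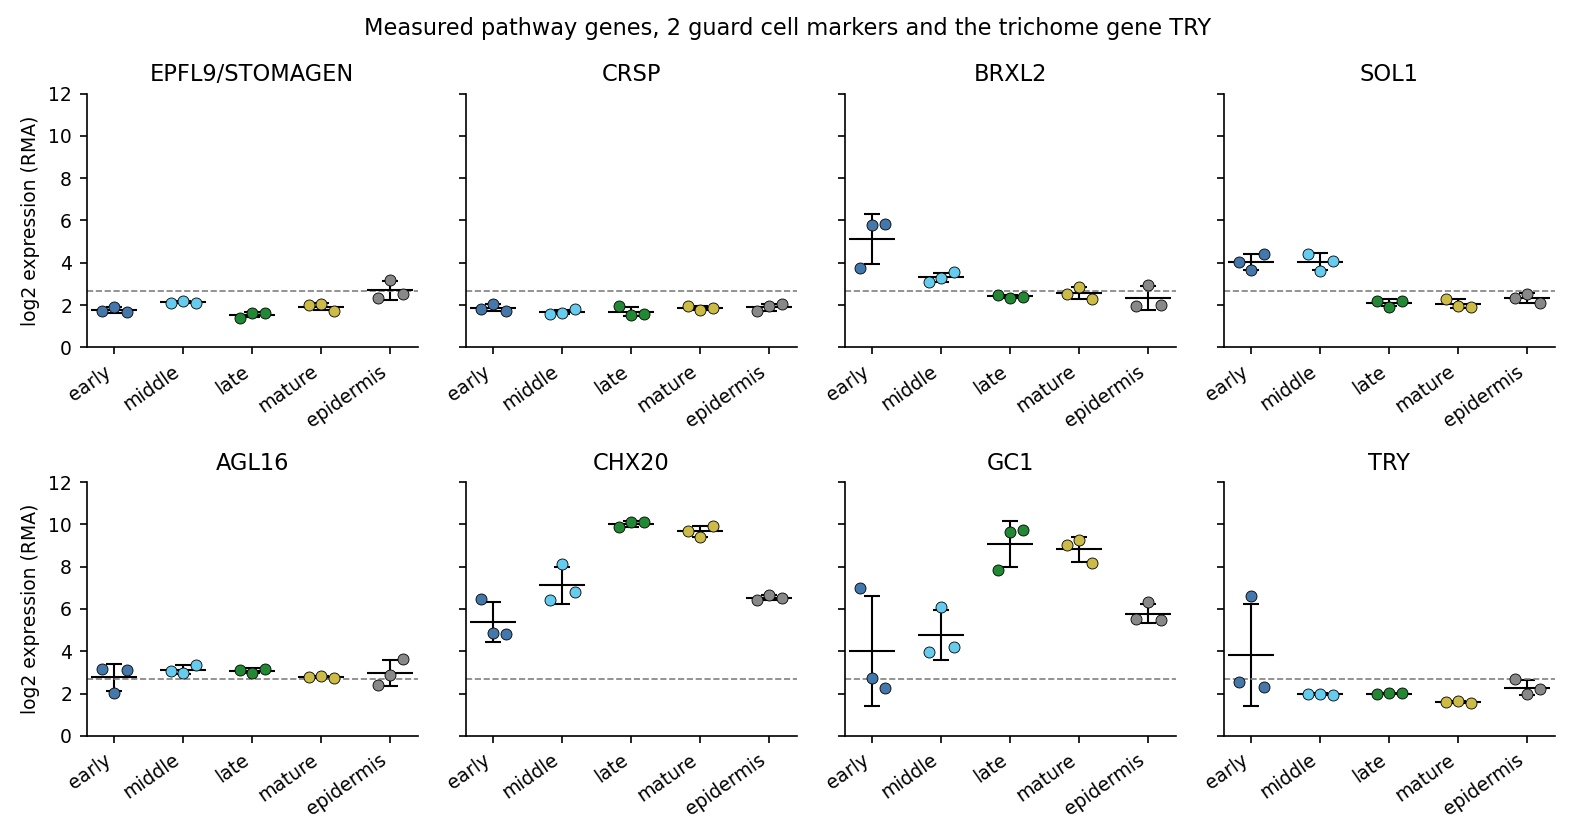
Log2 expression (RMA) on each array for the 5 measured pathway genes, the guard cell markers CHX20 and GC1, and TRY: points are arrays, bars are group means with SD (n = 3), and the dashed line is 2.68. SOL1 lies between 3.62 and 4.43 in early and middle precursors, GC1 is at 6.99 on 1 early precursor array, and TRY is at 6.61 on another.

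The genes whose levels ran most like those of each regulator were picked by Pearson's r over the 15 arrays, among 3135 genes whose group means span at least 1 log2 unit. Since they were picked for likeness, r is a description, and arrays of a group share a line and a stage. The lists depend on the measure. With Spearman's rho over the 15 arrays, 2 of the 5 genes named for SPCH, 0 of 5 for MUTE and 1 of 5 for FAMA were again among the closest 5. With Pearson's r over the 5 group means, 1 of 5 for SPCH, 1 of 5 for MUTE and 0 of 5 for FAMA were. Most like SPCH were AT5G16250 (r = 0.987), AT2G16270 (0.979), the thaumatin-like protein gene ATLP-1 (0.977), AT1G23790 (0.976) and AT4G02800 (0.975). AT5G16250 averaged 6.70 in early precursors, 4.26 in middle precursors and 3.33 to 3.57 in the other populations. ATLP-1 averaged 7.16 in early precursors and 3.21 in middle precursors, against 2.20 to 2.52 elsewhere.

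With the SPCH-YFP arrays left out, the genes closest to SPCH were different: 0 of the 5 were shared. On the 12 arrays that remain, SPCH lay above 2.68 only on the 3 middle precursor arrays and mature guard cell replicate 3. An r over them thus rests largely on middle precursors against the other populations. Over those 12 arrays the closest were AT4G13710 (r = 0.976), AT5G23910 (0.969), AT3G51280 (0.960), FU (0.953) and PRL (0.951). PRL encodes MCM7, a subunit of the replicative helicase, and FU encodes the kinase FUSED, which acts at the phragmoplast in cytokinesis. PRL averaged 3.30 in middle precursors but 2.07 in early precursors, and its r over all 15 arrays was -0.039. AT4G13710 averaged 5.07 in middle and 2.99 in early precursors, with r = 0.053 over all 15 arrays. AT3G51280 was close to SPCH either way, with 8.28 in early precursors, 5.83 in middle precursors and r = 0.958 over all 15.

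MUTE lay near the background in every population, with group means from 1.54 to 2.37, which limits any r with it. No gene was as close to MUTE as the closest were to SPCH. The highest were AT5G23400 (r = 0.901), AT1G10850 (0.897), AT5G19730 (0.891), AT1G33055 (0.887) and AT2G41190 (0.876). AT5G23400 averaged 6.12 in middle precursors, against 3.08 in early and 3.15 in late precursors, and its mean was 2.26 to 2.53 in the remaining populations, so it too was highest in middle precursors. The other 4 averaged 2.97 to 4.33 in middle precursors.

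Most like FAMA were AT3G47800 (r = 0.969), the aldehyde dehydrogenase gene ALDH3F1 (0.959), AT5G07870 (0.947), AT2G22320 (0.947) and AT1G19130 (0.941). ALDH3F1 averaged 2.65 in early, 5.07 in middle and 6.39 in late precursors. Mature guard cells had a mean of 5.51 for it, and the epidermis 3.22. AT2G22320 averaged 2.49 in early, 5.88 in middle and 7.52 in late precursors, while mature guard cells were at 7.08. With the GFP-FAMA arrays left out, 3 of the 5 closest genes were shared (AT3G47800, AT2G22320 and ALDH3F1), and the highest r was that of AT4G25260 (0.978). The 3 shared genes had their highest mean in late precursors, as FAMA had. They were also picked over the 15 arrays, GFP-FAMA included, and that choice favours such a peak. AT4G25260 and AT1G68500, picked only without the GFP-FAMA arrays, had their highest mean in middle precursors. AT4G25260 averaged 7.27 in middle precursors, 7.03 in late precursors and, for mature guard cells, 7.12. AT1G68500 averaged 9.48, 8.38 and 8.69 in the same order.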

How the data were processed

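Expression was measured on 15 ATH1 arrays, 3 in each of 5 sorted populations; each replicate held 2000 to 20000 cells. The deposited values are log2 expression per probe set, which per the submitters' processing notes the authors obtained by RMA (affy); versions are not given in the sources used here. The log base is inferred from RMA and from the range, 1.11 to 13.4. Background, normalization and summarising were thus done before deposit and were not redone. Probe sets were named from the platform annotation, which lists 12783 of 20956 to 1 gene, 37 to several and 8136 to none. All 20956 entered 1 fit in limma 3.58.1 (R 4.3.3) with 1 mean per group and 10 residual degrees of freedom. The 10 pairwise comparisons used moderated two-sided tests with Benjamini-Hochberg adjustment over all probe sets and a threshold of 0.05; errors are SE for differences and SD for levels. Intervals (95%) are per gene, not adjusted. The script was tested on simulated data. The precision is limited by the number of arrays. The labels do not say whether replicates came from separate plantings, so p-values measure the spread between these samples, which may be technical. Named genes were the 3 regulators, every measured pathway gene, and for each regulator the 5 genes with the highest and the 3 with the lowest r over 15 arrays (for SPCH and FAMA also the 5 highest over the 12 arrays without its transgene). Members, lists and tests were chosen with earlier results of these data known. Alternatives covered normalization, weights, variance prior, filters, samples in the fit, averaging of late precursor replicates 2 and 3, a replicate block, and leaving out each array.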

Additional observations from a re-analysis of the deposited data

How the results depend on the processing

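Of 308 pairs of an SPCH, MUTE or FAMA difference and a setting other than leaving out an array, 284 kept direction and side of the threshold. In what follows, early, middle, late and mature name the populations, and "over" means the first minus the second. No cause was tested for any of the changes. With cyclic loess these uncalled log2 differences turned sign: SPCH late over epidermis (-0.19) and mature over epidermis (-0.0058), and MUTE early over epidermis (-0.019), late over epidermis (0.069), late over early (0.088) and mature over early (0.23). With quantile normalization MUTE late over epidermis (0.021) and mature over early (0.13) did. Cyclic loess brought the median log2 difference of all probe sets between later stages and early precursors to between -0.015 and -0.022, against -0.11 to -0.15 as deposited. The share of calls that were higher moved from 58.6% to 44.3% for middle over epidermis with cyclic loess, from 59.3% to 49.0% for late over epidermis and from 58.5% to 43.2% for mature over epidermis. With quantile normalization it was 49.1% for late over epidermis and 46.9% for mature over epidermis. For middle over early (57.6% as reported) it was 74.7% with array weights, 75.3% with 1 weight per group, 46.5% with a variance trend, 77.5% with the dim filter, 47.3% for probe sets listed to 1 gene and 87.8% with the 2 groups alone. For late over early (53.4%) it was 64.2% with 1 weight per group, 69.5% with the dim filter, 66.6% with averaged late replicates and 77.6% with the 2 groups alone. For mature over early (48.3%) it was 62.8%, 60.3%, 68.3% and 76.8% with array weights, 1 weight per group, the dim filter and the 2 groups alone. The 2 groups alone gave 71.9% for mature over epidermis. For mature over late (48.3%), with few calls, it ran from 33.3% with averaged late replicates to 62.5% for probe sets listed to 1 gene.

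With array weights, calls were lost for MUTE middle over early (0.74, adjusted p = 0.152) and FAMA early over epidermis (-0.87, 0.169), and gained for MUTE mature over middle (-0.82, 0.0185). With 1 weight per group, MUTE middle over early (0.68, 0.195) and FAMA early over epidermis (-0.89, 0.160) were lost. A trend in the variance prior lost FAMA early over epidermis (-0.89, 0.105) and gained MUTE mature over middle (-0.71, 0.0477). Averaging late replicates 2 and 3 lost MUTE middle over epidermis (0.77, 0.0582), middle over early (0.68, 0.0650) and late over middle (-0.81, 0.124). Fitting only the 2 groups compared lost SPCH mature over middle (-1.58, 0.0703), FAMA mature over late (-2.88, 0.0691) and early over epidermis (-0.89, 0.174), and MUTE middle over epidermis (0.77, 0.0958), middle over early (0.68, 0.207) and late over middle (-0.83, 0.0620). MUTE has no value under the filter on dim probe sets, which removes it. With 1 array left out, the log2 differences ranged over 0.57 to 1.00 for MUTE middle over epidermis, 0.48 to 0.91 for middle over early, -1.06 to -0.63 for late over middle, -0.93 to -0.51 for mature over middle and -1.08 to -0.69 for FAMA early over epidermis. Uncalled differences that changed sign in 1 such fit ranged over -0.067 to 0.11 for SPCH late over epidermis, and for MUTE -0.11 to 0.022 (late over epidermis), -0.068 to 0.19 (mature over epidermis), -0.16 to 0.10 (mature over early) and -0.0087 to 0.25 (mature over late).

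Counts of probe sets called moved by over 1.5 times as follows. Array weights gave 863 for early over epidermis, 2286 for middle over epidermis, 4710 for late over epidermis, 1468 for mature over epidermis, 770 for middle over early, 1868 for mature over early, 4256 for late over middle, 1031 for mature over middle and 1008 for mature over late. With 1 weight per group they were 770 for early over epidermis, 1986 for middle over epidermis, 2626 for late over epidermis, 651 for middle over early, 2246 for late over early, 1765 for mature over early, 1938 for late over middle, 821 for mature over middle and 88 for mature over late. Probe sets listed to 1 gene gave 929 for early over epidermis, 522 for middle over epidermis, 755 for late over epidermis, 438 for mature over epidermis, 1204 for middle over early, 2552 for late over early, 2590 for mature over early, 375 for late over middle, 152 for mature over middle and 16 for mature over late. The 2 groups compared alone gave 273 for early over epidermis, 533 for mature over epidermis, 362 for middle over early, 1496 for late over early, 897 for mature over early, 1793 for late over middle, 472 for mature over middle and 0 for mature over late, where 2202 had an unadjusted p under 0.05 in limma. Without the early precursor arrays there were 2496 for middle over epidermis, 2924 for late over epidermis, 1944 for mature over epidermis, 1412 for late over middle and 644 for mature over middle. Averaging late replicates 2 and 3 gave 858 for late over epidermis, 2141 for late over early, 327 for late over middle and 3 for mature over late. Cyclic loess gave 1140 for middle over early and 2708 for mature over early. For mature over late, quantile normalization gave 13 and the dim filter 18. With 1 array left out, named in parentheses, the counts ran from 1168 (epidermis 2) to 2752 (early 3) for early over epidermis, 502 (middle 3) to 1692 (early 2) for middle over epidermis, 878 (epidermis 3) to 2175 (early 2) for late over epidermis, 309 (mature 1) to 1268 (early 2) for mature over epidermis, 703 (middle 3) to 3765 (early 3) for middle over early, 2132 (late 3) to 5365 (early 3) for late over early, 2319 (mature 1) to 5437 (early 3) for mature over early, 332 (late 2) to 1016 (early 2) for late over middle, 107 (middle 3) to 411 (early 1) for mature over middle and 3 (late 2 or 3) to 69 (late 1) for mature over late.

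STOMAGEN early over epidermis was lost with array weights (0.0624), 1 weight per group (0.0728) and the 2 groups alone (0.192). The 5 genes most like each regulator also changed: 2 of 5 for SPCH, 0 for MUTE and 1 for FAMA were shared with Spearman's rho, and 1, 1 and 0 with Pearson's r over group means. Of the 5 pathway genes, the calls for early over epidermis numbered 1 with the 2 groups alone, and for mature over early 1 in the same setting. Those for middle over epidermis numbered 2 without the early precursor arrays. For mature over epidermis they numbered 0 with quantile normalization, cyclic loess, the averaged replicates or the 2 groups alone. The dim filter removes STOMAGEN, the gene called for mature over epidermis and late over epidermis. The counts of 0 in that setting are therefore not lost calls. STOMAGEN late over epidermis kept its call in all 25 settings that hold it. For middle over early the calls numbered 0 with the 2 groups alone. For late over middle they numbered 2 with 1 weight per group, and 3 both with array weights and with the 2 groups alone. With 1 array left out they ranged from 1 to 2 for middle over epidermis and late over middle, and from 0 to 1 for mature over epidermis and middle over early.

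Same-numbered samples correlated at -0.10 to 0.17 in their deviations and 7 of 15 arrays correlated best with their own number, so the numbers were not taken to pair the samples. With a replicate block 14 probe sets passed for mature over late, and no SPCH, MUTE, FAMA or pathway call changed. MUTE lies near the background, which limits what its values can show.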

Other observations

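Beside SPCH, MUTE and FAMA, 7 of 31 other genes that the reference names as bHLH have a probe set in the annotation used here. The list was made after the data were seen. Most of them belong to the bHLH proteins of iron homeostasis. Against early precursors 1 of 7 rose in middle precursors, 2 in late precursors and 3 in guard cells at maturity, and 0 fell, where 5.47%, 10.8% and 9.71% of all probe sets rose. In early precursors against the epidermis 2 of 7 fell and 0 rose, where 5.51% of all probe sets fell. bHLH115 measured 2.79, 2.69 and 2.63 in early precursors and 4.46, 4.26 and 3.90 in the epidermis, a difference of -1.50 (SE 0.28, adjusted p = 0.00542). bHLH104 averaged 4.44 ± 0.90 in early precursors and 6.21 ± 0.66 in the epidermis (SD, n = 3 each; adjusted p = 0.0335). In late precursors bHLH115 was 4.39-fold higher than in early precursors (adjusted p = 0.000259). AT1G22490 stayed at or below 2.62 on all 15 arrays.

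Levels opposite to those of a regulator were found by the lowest r over 15 arrays. For SPCH these were HL (r = -0.963), a HAL2-like gene, AT1G34220 (-0.963) and CCT2 (-0.957), an enzyme gene of phosphatidylcholine synthesis. HL averaged 2.75 in early and 5.21 in middle precursors, and 5.98 to 6.61 elsewhere. For MUTE, AT5G57480 stood alone at r = -0.918. It averaged 4.35 in middle precursors and 5.90 to 6.32 in the other populations, and the next gene, AT1G34750, had r = -0.702. For FAMA they were AT3G30570 (-0.902), AT5G42070 (-0.901) and CP5 (-0.899). CP5 averaged 7.59 in late precursors and 9.31 in the epidermis.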
